A study of Mus musculus with 36 samples.

Results

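Transcripts of 9 genes that make, interconvert and use nicotinamide adenine dinucleotide (NAD) were followed through the day in mice on 2 diets. The 9 genes were chosen by symbol: Nampt, Nmnat1, Nmnat2, Nmnat3, Nnt, Sirt1, Sirt2, Sirt3 and Parp1. Each had 1 row among the 24883 rows of both tables of values, and all 9 exceeded the minimum level for testing, a mean of at least 1. RNA was sequenced from a dissected region enriched for the suprachiasmatic nucleus (SCN), the seat of the central circadian clock, of adult C57BL/6J mice. After 10 weeks on normal chow or on high-fat diet, tissue was taken at zeitgeber time (ZT) 0, 4, 8, 12, 16 and 20, with 3 libraries at each time in each diet and 36 in all. C57BL/6J mice carry a deletion of several exons in Nnt, which animals of both diets would share, so the level given for Nnt here is that of a transcript and says nothing of the enzyme.

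NAD is a redox cofactor that is also consumed as a substrate. Mammalian cells rebuild it mainly from nicotinamide: NAMPT makes nicotinamide mononucleotide, the rate-limiting step of this salvage, and the NMNAT enzymes turn that into NAD. NMNAT1 works in the nucleus, NMNAT2 at the Golgi and in axons, where it is known for keeping axons intact, and NMNAT3 is assigned to mitochondria. Sirtuins are protein deacylases that use up NAD (SIRT1 mainly nuclear, SIRT2 mainly cytosolic and abundant in myelin, SIRT3 mitochondrial), and PARP1 uses it to build poly(ADP-ribose) at DNA breaks. NNT is a proton-driven transhydrogenase of the inner mitochondrial membrane that passes hydride from NADH to NADP+. In mouse liver and fibroblasts, CLOCK and BMAL1 drive Nampt through E-boxes, and SIRT1 and PARP1 act back on the clock proteins, which is why the time of day matters for these genes.

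The E-box core recognised by CLOCK and BMAL1 is CACGTG, which reads the same on both strands. It was searched in the 250 bases before the annotated start in RefSeq promoters on GRCm38.p6, which held 10 promoters for 8 of the 9 genes (Nnt was not matched). Promoters of Sirt1 and Parp1 held it, while 6.02% of all 32851 promoters did. The first bases of the Sirt1 matches lay 115 and 43 bases before the start, and that of Parp1 lay 49 bases before it. The related CACGTT, searched on both strands, was in 0 of the 10 promoters and in 3.85% of all. The sequences of Sirt1 and Parp1 are shown because they hold the motif. The levels of both genes were correlated across libraries (r = 0.71), and whether the motif has a part in that was not tested. The sequence of Nampt is shown because it is the salvage gene known as a clock target. Each is the strand of the gene, 5′ to 3′, ending at the base before the RefSeq start, with CACGTG in capitals. These starts can differ from those of the GENCODE gene positions given below. The windows of Nampt and Sirt1 lie inside those gene bounds. No match says only that these letters are not in this window, and a match is not a bound site.
Nampt, chr12:32820085-32820334, plus strand: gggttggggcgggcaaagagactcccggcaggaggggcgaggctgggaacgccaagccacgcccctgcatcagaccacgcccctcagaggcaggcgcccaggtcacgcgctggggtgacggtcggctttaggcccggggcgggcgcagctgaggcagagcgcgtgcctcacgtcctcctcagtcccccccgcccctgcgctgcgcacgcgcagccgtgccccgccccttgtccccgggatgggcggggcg
Sirt1, chr10:63339036-63339285, minus strand: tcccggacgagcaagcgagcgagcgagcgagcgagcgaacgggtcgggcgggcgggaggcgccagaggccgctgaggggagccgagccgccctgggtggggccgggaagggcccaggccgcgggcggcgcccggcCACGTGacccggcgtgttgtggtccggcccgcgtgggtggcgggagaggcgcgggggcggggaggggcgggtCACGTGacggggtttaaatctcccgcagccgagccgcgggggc
Parp1, chr1:180568641-180568890, plus strand: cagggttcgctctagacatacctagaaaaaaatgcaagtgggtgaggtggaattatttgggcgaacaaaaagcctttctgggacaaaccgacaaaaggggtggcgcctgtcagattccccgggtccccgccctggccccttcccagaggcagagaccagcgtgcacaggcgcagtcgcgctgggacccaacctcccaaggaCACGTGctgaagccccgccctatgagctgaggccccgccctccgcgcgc

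Values are FPKM, fragments per kilobase of transcript scaled by the number of mapped fragments, rescaled in each library to sum to 1000000 and called levels here. Deposited FPKM summed to between 302899 and 432336 per library, and depth in reads is unknown. All 12 SCN markers were above the minimum, and their summed level ran from 589.8 to 2870 (median 1797) under chow and from 349 to 4462 (median 1554) under high-fat diet. Most of that sum was 1 gene, Avp, with a mean of 1731 and a range from 234 to 4301. Library 2 of high-fat diet at ZT 8 stood apart. It had the lowest FPKM sum, the lowest SCN marker sum and the highest summed level of the 4 oligodendrocyte precursor markers (118), and results that rest on it are given with and without it. Library 1 of chow at ZT 0 was also unusual, and least like the median over all libraries (r = 0.951, against 0.956 for the former). Its marker sums were the highest for liver (5198), blood (7782) and choroid plexus (393). Its Parp1 level (18.6) was the lowest of all, and its Sirt1 level (7.91) the lowest under chow. Correlations are not given without it alone. In bulk tissue, fewer cells of a type and less RNA per cell cannot be told apart. Nothing in the labels tells whether a group's 3 libraries are 3 animals, so p-values measure the spread between these samples, which may be technical. The diets come in separate tables, and a step that differed between the tables cannot be told apart from diet.

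Sirt2, Nmnat2 and Sirt3 were the abundant transcripts of this set, and Nmnat3 the scarcest. Over the 36 libraries the mean level was 179.9 ± 18.6 (SD) for Sirt2, 123 ± 14.6 for Nmnat2 and 98.1 ± 8.74 for Sirt3. Between 87.1% and 93.3% of all tested rows lay below these 3 genes. Nampt had a mean level of 32.8 ± 4.08 and Parp1 one of 24.4 ± 3.50. The remaining genes were low: Nnt at 13.0 ± 1.38, Sirt1 at 10.3 ± 1.44, Nmnat1 at 7.82 ± 1.32 and Nmnat3 at 2.75 ± 0.669. The mean of Sirt2 was thus 65.4 times that of Nmnat3. FPKM is per length, so levels of different genes can be set side by side.

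**Figure D1:**
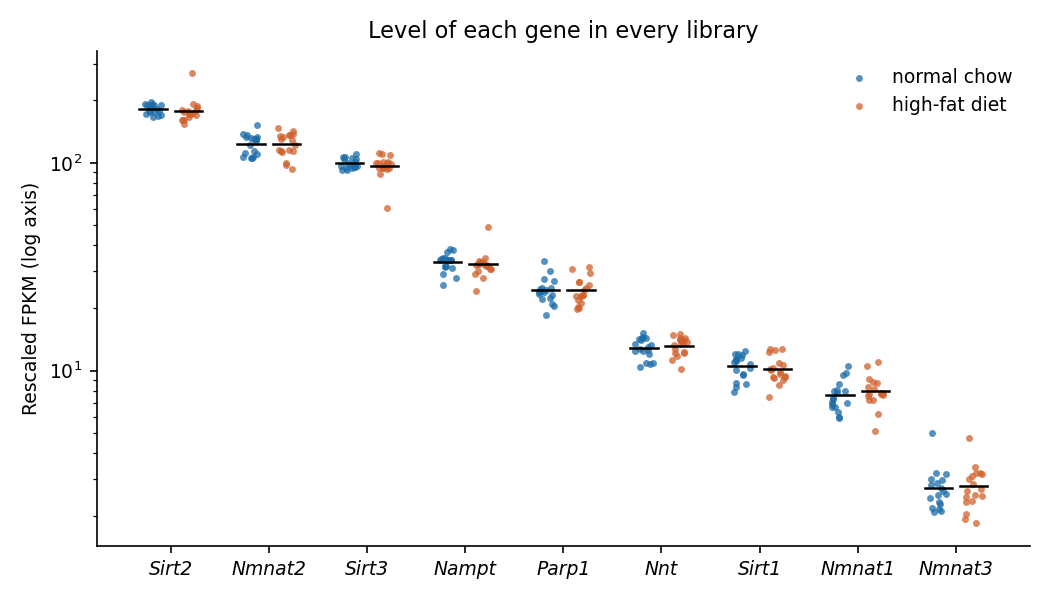
Level of each of the 9 genes in every library, in rescaled FPKM on a log axis, ordered by mean. Points are the 18 libraries of each diet and bars their means. The order from Sirt2 (mean 179.9) to Nmnat3 (mean 2.75) was the same in both diets' means, and 1 high-fat library lies far from the rest for Sirt2 and Sirt3.

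Of the 8 neighbouring pairs in this order, 4 did not overlap over the 36 libraries: Sirt2 above Nmnat2, Sirt3 above Nampt, Parp1 above Nnt and Nmnat1 above Nmnat3. The ranges of the other 4 pairs overlapped, yet within a library the order was mostly kept. Nmnat2 was above Sirt3 in 32 of 36 libraries, Nampt above Parp1 in 35, Nnt above Sirt1 in 35 and Sirt1 above Nmnat1 in 34.

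Among the 3 Nmnat genes, whose enzymes catalyse the same step in different compartments, Nmnat2 held 92.0% ± 1.49 (SD, n = 36) of the summed level, with a range from 85.9% to 94.3%. Among the 7 sirtuins, Sirt2 held 49.3% ± 3.04 and Sirt3 27.0% ± 2.86 of the summed level. Sirt1, the sirtuin best known for its link to the clock, held 2.84% ± 0.346, the smallest share of the 7. Between them lay Sirt7 at 6.12%, Sirt5 at 5.68%, Sirt4 at 4.67% and Sirt6 at 4.34%. The highest share of Sirt2, 64.5%, and the lowest of Sirt3, 14.4%, both came from library 2 of high-fat diet at ZT 8.

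The spread between libraries also differed among the genes. Under chow, the coefficient of variation was 5.03% for Sirt2 and 5.77% for Sirt3, near 10% for Nampt (9.94%), and 24.9% for Nmnat3. Under high-fat diet it was 13.97% for Sirt2, 11.3% for Sirt3, 14.8% for Nampt and 24.4% for Nmnat3. Without library 2 of ZT 8 it was 5.84%, 6.40%, 7.99% and 25.2% for the same genes. For Nmnat3 a single chow library at 5.03 (ZT 12) and a single high-fat library at 4.74 (ZT 16) lay above all others. These were also the libraries with the highest summed level of 7 thalamic, cortical and striatal markers (1565 and 2158, against medians of 302 under chow and 311 under high-fat diet). The correlation of Nmnat3 with that sum was r = 0.67 (rho = 0.38) over the 36 libraries and 0.25 without the 2 libraries farthest from its median.

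On GRCm38 (GENCODE M21), Nampt lies at chr12:32819545-32853349, Nmnat1 at chr4:149467572-149485202, Nmnat2 at chr1:152954993-153119261 and Nmnat3 at chr9:98287435-98420438. Nnt lies at chr13:119335448-119408997, Sirt1 at chr10:63319005-63381704, Sirt2 at chr7:28766735-28788661 and Parp1 at chr1:180568924-180601254. The exons of Sirt3, at chr7:140863666-140882309, overlap exons of Ric8a by 418 bases and of Psmd13 by 342 bases, both on the opposite strand, against 1606 bases in its longest coding transcript. The kit marks strand, but whether the counting used it is not given in the sources used here, so the level of Sirt3 is uncertain. Such overlaps were 65 bases for Sirt1 (with Gm16145) and 42 bases for Sirt2 (with Nfkbib). Nnt has 2 gene records at the same place on chr13 on this annotation, and the tables have 1 row for it.

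Whether these transcripts cycled was asked with a 24 h cosine in each diet and over both. Under chow, 0 of 9 genes passed at an adjusted p under 0.05 in limma, where 0.845% of all rows did. At an unadjusted p under 0.05, 2 of 9 passed, Nampt and Nnt, where 18.2% of all rows did, so this count is near the background. The median peak-to-trough fold of the 9 genes was 1.12, and that of all rows was 1.14. By comparison, the clock output gene Dbp had a fold of 2.53 with a peak at ZT 9.62 ± 0.305 (SE), called with an adjusted p of 2.06e-05. Nr1d1, a repressor of the clock, had a fold of 1.47 with a peak at ZT 6.75 (adjusted p = 0.00268), and Arntl, which encodes BMAL1, had one of 1.35 with a peak at ZT 22.8 (adjusted p = 0.0941).

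Group means of Nampt were lowest at ZT 4 (30.3) and highest at ZT 12 (35.8) under chow. Its levels were 27.8, 29.3 and 34.7 at ZT 0, 33.9, 25.8 and 31.2 at ZT 4, and 34.2, 34.4 and 31.7 at ZT 8. They were 31.8, 38.4 and 37.1 at ZT 12, 34.1, 38.0 and 33.9 at ZT 16, and 31.7, 34.1 and 34.7 at ZT 20. ZT 4 and ZT 12 overlapped through the library at 33.9 and the one at 31.8. The fitted peak was at ZT 14.05 ± 1.19 (SE) with a fold of 1.19 (limma, n = 18 libraries, p = 0.0172, adjusted p = 0.198). The circadian gene Per2 was fitted with a peak at ZT 13.7 ± 1.67 and a fold of 1.32 under chow, itself not called (adjusted p = 0.349).

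Nnt had its lowest values in the middle of the day under chow. At ZT 8 its levels were 10.9, 10.5 and 10.8, close together, against 13.0, 15.2 and 14.2 at ZT 0, with no overlap between these times. Levels were 13.2, 13.4 and 12.7 at ZT 4 and 10.8, 12.1 and 14.3 at ZT 12. They were 14.02, 12.6 and 12.4 at ZT 16 and 14.5, 14.4 and 12.4 at ZT 20. The fitted peak was at ZT 21.5 ± 1.04 with a fold of 1.23, the largest of the 9 under chow (limma, n = 18 libraries, p = 0.00674, adjusted p = 0.143). Over the whole table, 26.2% of rows had a larger fold. Without library 3 of chow at ZT 12, the adjusted p was 0.0539, the lowest among all alternatives.

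The other 7 genes had unadjusted p-values from 0.102 to 0.875 under chow. Nmnat1 had a fitted fold of 1.22 with a peak at ZT 19.1 ± 1.68, and group means from 6.79 at ZT 4 to 8.83 at ZT 20. Nmnat3 also had a fold of 1.22, with a peak at ZT 8.72 ± 1.94 and group means from 2.19 at ZT 16 to 3.50 at ZT 12, where the single library at 5.03 sits. The fold was 1.12 for Sirt1, 1.10 for Parp1 and 1.08 for Nmnat2. The flattest were Sirt2 and Sirt3, both with a fold of 1.02. Group means of Sirt2 stayed between 174 at ZT 16 and 186 at ZT 20, and those of Sirt3 between 96.5 at ZT 16 and 103 at ZT 0.

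**Figure D2:**
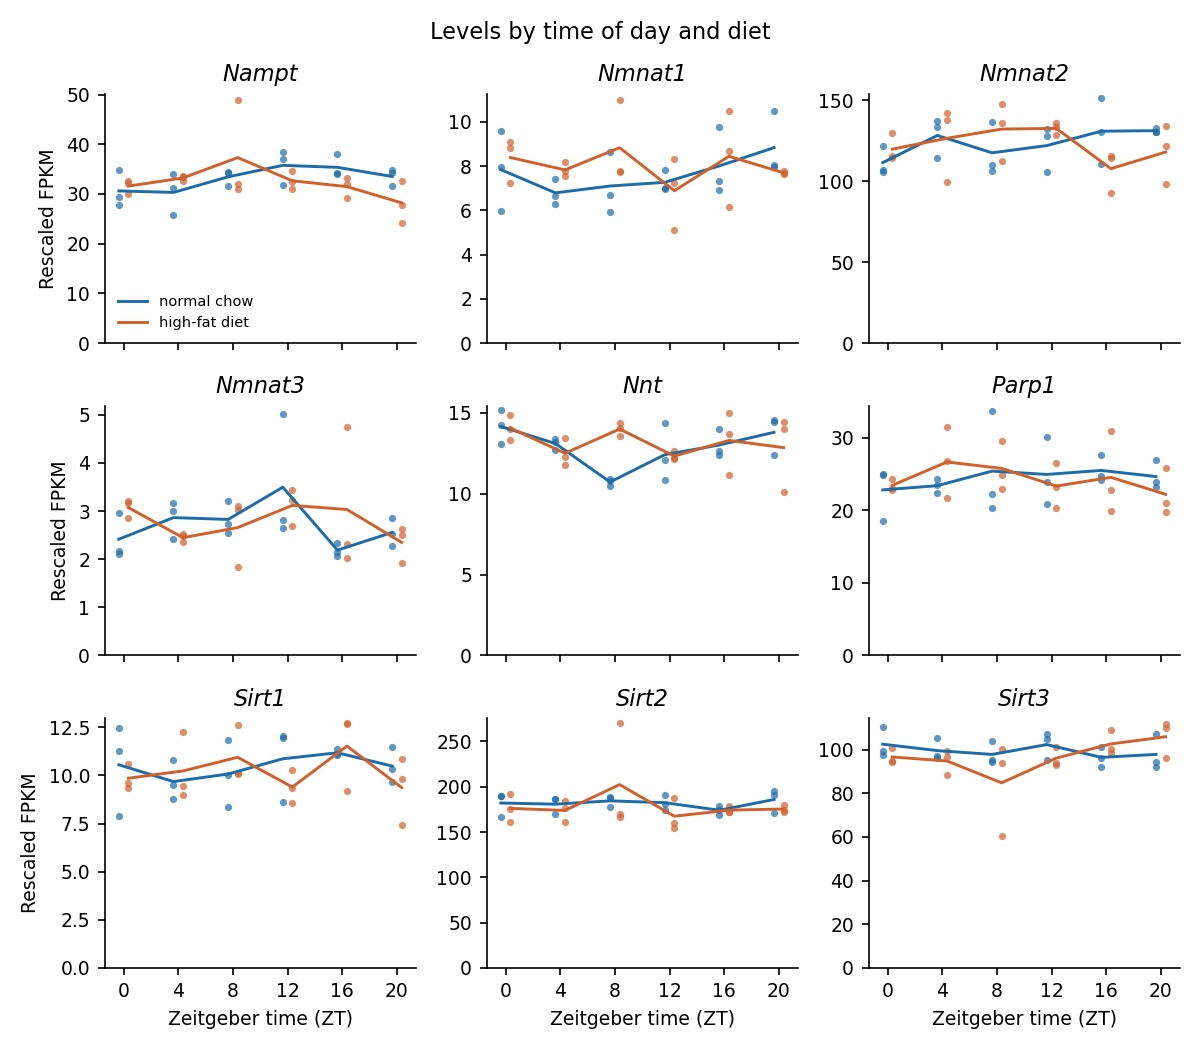
Level of each gene (rescaled FPKM, axes from 0) at each zeitgeber time, with 1 point per library and lines through the means of 3 libraries. Nnt under chow dips at ZT 8 (10.5 to 10.9), and 1 high-fat library at ZT 8 is high for Nampt (49.0) and Sirt2 (269.9) and low for Sirt3 (60.3).

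Under high-fat diet, 0 of 9 genes passed at an adjusted p under 0.05 (limma), where 0.0728% of all rows did, and 0 of 9 at an unadjusted p under 0.05, where 8.64% did. The median fold was 1.08 for the 9 genes and 1.15 for all rows. Dbp had a fold of 2.08 with a peak at ZT 9.45 (adjusted p = 0.00279). The fold was 1.474 for Nr1d1 (adjusted p = 0.0233) and 1.659 for Per2 (adjusted p = 0.110). Arntl had a fold of 1.203 (adjusted p = 0.616), smaller than those of Nampt (1.22) and Sirt3 (1.21) in this diet.

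The levels of Nampt under high-fat diet were 32.2, 29.99 and 32.6 at ZT 0, 33.4, 33.6 and 32.7 at ZT 4, and 30.9, 49.0 and 32.0 at ZT 8. They were 32.4, 34.7 and 30.9 at ZT 12, 32.0, 33.2 and 29.2 at ZT 16, and 27.8, 32.6 and 24.2 at ZT 20. Apart from the library at 49.0, the values lay between 24.2 and 34.7, and the lowest 2 were both at ZT 20. The library at 24.2, library 3 of ZT 20, had the highest FPKM sum of all (432336). On the deposited FPKM the lowest high-fat value of Nampt was 9.92, at ZT 16, and that library had 10.5. The fitted fold was 1.22 with a peak at ZT 7.76 ± 1.46 (limma, n = 18 libraries, p = 0.0543, adjusted p = 0.575). Without that library the fold was 1.12 and the peak at ZT 7.59 ± 1.78 (adjusted p = 0.755).

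For Sirt3 the same library was the low one. Levels were 100.8, 94.7 and 94.4 at ZT 0, 99.4, 88.5 and 96.5 at ZT 4, and 100.1, 60.3 and 94.0 at ZT 8. They were 94.1, 93.1 and 101 at ZT 12, 98.6, 100.3 and 109 at ZT 16, and 109.8, 96.1 and 112 at ZT 20. The fold of 1.21, with a peak at ZT 19.2 ± 1.49 (limma, n = 18 libraries, p = 0.0613, adjusted p = 0.575), became 1.11 with a peak at ZT 18.3 ± 1.53 (adjusted p = 0.681) without it. Mean Sirt3 at ZT 8 was 84.8 ± 21.4 (SD, n = 3), and every other high-fat library had at least 88.5.

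Nnt had the flattest fit under high-fat diet, with a fold of 1.04 and a peak that could not be placed (SE of 6.84 h). Its levels at ZT 8 were 14.3, 13.6 and 14.04, and its widest group was ZT 20 at 14.01, 14.4 and 10.1. Nmnat2 had a fold of 1.18 with a peak at ZT 7.32 ± 1.90 (adjusted p = 0.630), and its group means ran from 108 at ZT 16 to 133 at ZT 12. The fold was 1.14 for Parp1, 1.08 for Nmnat1 and Nmnat3, 1.07 for Sirt2 and 1.06 for Sirt1, with p-values from 0.351 to 0.826.

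Over both diets together, with 1 shared rhythm, 0 of 9 genes passed at an adjusted p under 0.05 (limma), where 2.18% of all rows did, and 0 of 9 at an unadjusted p under 0.05, where 13.1% did. Nampt came closest, with a fold of 1.14 and a peak at ZT 10.6 ± 1.53 (n = 36 libraries, p = 0.0568, adjusted p = 0.40), followed by Nnt with a fold of 1.12 and a peak at ZT 22.1 ± 1.59 (p = 0.0685, adjusted p = 0.432). In the same fit Dbp had a fold of 2.29 (adjusted p = 3.08e-11) and Per2 one of 1.46 with a peak at ZT 12.2 ± 0.821 (adjusted p = 0.0169).

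The fitted peak of Nampt stood at ZT 14.05 under chow and at ZT 7.76 under high-fat diet. The difference between the 2 rhythms was tested directly, and 0 of 9 genes passed at an adjusted p under 0.05 (limma), where 0% of all rows did. At an unadjusted p under 0.05, 1 of 9 passed, where 13.2% of all rows did: Nampt (n = 36 libraries, p = 0.0214, adjusted p = 0.357). Without library 2 of high-fat diet at ZT 8 the unadjusted p was 0.0227 and the adjusted p 0.555, and over all alternatives the unadjusted p ran from 0.00531 to 0.144. The group means of Nampt were higher under high-fat diet at ZT 0, 4 and 8 and lower at ZT 12, 16 and 20, but at ZT 8 the direction rests on library 2. The log2 difference (high-fat minus chow) at ZT 8 was 0.12 with that library and -0.084 without it. Next by p were Sirt3 (adjusted p = 0.385, and 0.633 without that library) and Nnt (adjusted p = 0.417).

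**Figure D3:**
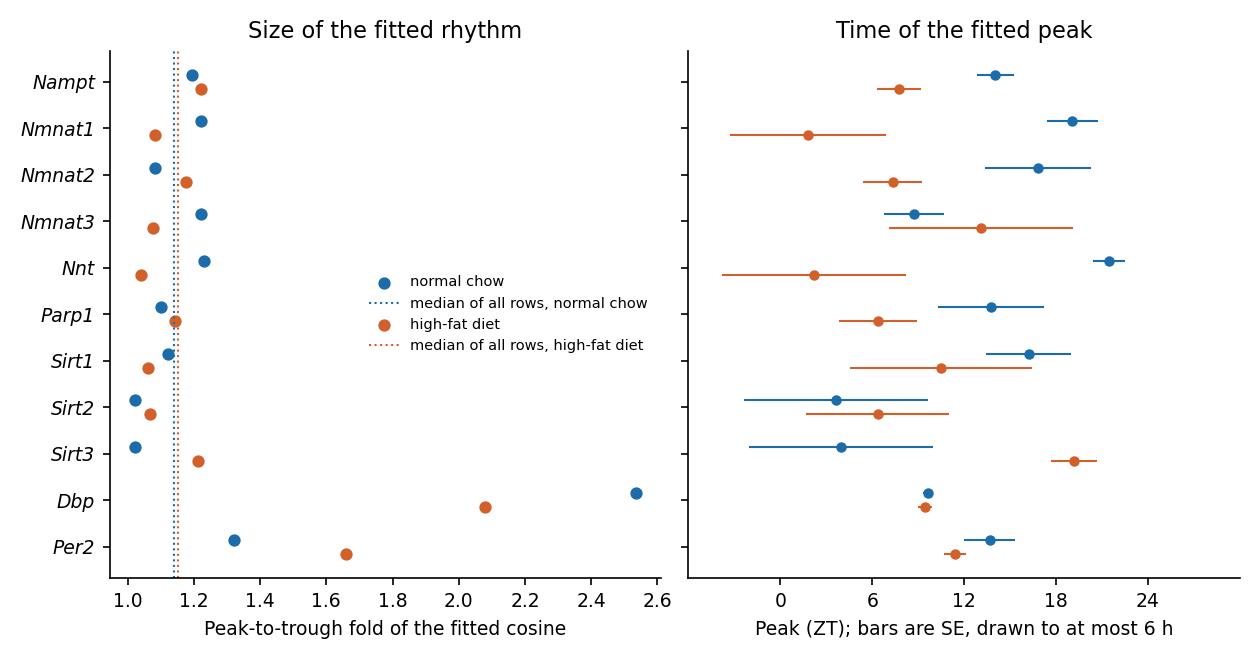
Left, peak-to-trough fold of the fitted 24 h cosine for the 9 genes and for the clock genes Dbp and Per2 in each diet, with the median over all rows as dotted lines (1.14 and 1.15). Right, fitted peak times with their SE, drawn to at most 6 h. The 9 genes lie between 1.02 and 1.23, below Dbp and Per2 in both diets. The clock genes Nr1d1 and Arntl are not drawn. Under high-fat diet Arntl had a smaller fold (1.203) than Nampt and Sirt3. The fitted peaks of Nampt stand at ZT 14.05 and 7.76, and those of Dbp at ZT 9.62 and 9.45.

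Averaged over the day, the diets gave nearly equal levels. Tested with time of day as a factor, 0 of 9 genes passed at an adjusted p under 0.05 (limma), where 0.0132% of all rows did, and 0 of 9 at an unadjusted p under 0.05, where 2.56% did. The log2 differences (high-fat minus chow) were negative for 6 genes and positive for 3, with a median of -0.012, and that over all rows was -0.00051. On the log2(level + 1) scale, the 95% intervals of all 9 genes together spanned ratios from 0.893 to 1.15, which understates the span in level for low genes such as Nmnat3 and Nmnat1.

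By role, the salvage enzyme Nampt had a lowest, median and highest level of 25.8, 34.0 and 38.4 under chow and of 24.2, 32.3 and 49.0 under high-fat diet, a log2 difference of -0.038 ± 0.054 (SE). Without library 2 of high-fat diet at ZT 8 this was -0.072 ± 0.044, and without library 3 of high-fat diet at ZT 20 it was -0.017. Nmnat1 had the largest positive difference, 0.060 ± 0.072, from 5.93, 7.37 and 10.5 under chow and 5.11, 7.76 and 10.98 under high-fat diet. Without the library at 10.98, library 2 of high-fat diet at ZT 8, it was 0.031 ± 0.068. For Nmnat2 the values were 106, 129 and 151 under chow and 93.0, 125 and 148 under high-fat diet, a difference of -0.012 ± 0.059. For Nmnat3 they were 2.08, 2.59 and 5.03, and 1.84, 2.66 and 4.74, a difference of 0.020 ± 0.078. All these ranges overlapped.

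Among the NAD users, Sirt1 had a lowest, median and highest level of 7.91, 10.9 and 12.5 under chow and of 7.42, 9.96 and 12.7 under high-fat diet (log2 difference -0.034 ± 0.063). Sirt2 ran through 166, 183 and 196 under chow and 154, 173 and 269.9 under high-fat diet (-0.036 ± 0.045). Without the library at 269.9, the difference of Sirt2 was -0.071 ± 0.029 (limma, n = 35 libraries, p = 0.0192, with an adjusted p that rounds to 1). In that fit 2.92% of all rows had an unadjusted p under 0.05. The sum of 10 oligodendrocyte markers ran from 4293 to 8122 under chow and from 3972 to 9019 under high-fat diet, with medians of 5733 and 5718. Sirt3 ran through 91.9, 97.2 and 111 under chow and 60.3, 97.5 and 112 under high-fat diet (-0.046 ± 0.047), and the difference was -0.0083 ± 0.031 without the library at 60.3. Parp1 ran through 18.6, 24.03 and 33.7 under chow and 19.8, 23.2 and 31.5 under high-fat diet (-0.0079 ± 0.067). Nnt ran through 10.5, 12.9 and 15.2 under chow and 10.1, 13.5 and 15.0 under high-fat diet (0.033 ± 0.049).

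At single times of day, 54 comparisons between diets were made for the 9 genes, and 0 passed at an adjusted p under 0.05 (limma), where 0.0011% of all rows and times did. At an unadjusted p under 0.05, 2 of 54 passed (3.70%), where 6.2% of all did, and both were at ZT 8, where 16.1% of all rows did. At ZT 0, 4, 12, 16 and 20 the share of all rows at an unadjusted p under 0.05 was 3.9%, 1.5%, 0.975%, 10.7% and 3.99%, and at ZT 12 0.00659% passed after adjustment. ZT 8 is the time of library 2 described above, and there the median log2 difference over all rows was 0.12, against 0.042 or less in size at ZT 0, 4, 12 and 16 and -0.064 at ZT 20.

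Nnt at ZT 8 was 10.9, 10.5 and 10.8 under chow and 14.3, 13.6 and 14.04 under high-fat diet, with no overlap. The log2 difference was 0.36 ± 0.11 (SE, 95% interval 0.13 to 0.58, limma, n = 36 libraries, p = 0.00301, adjusted p = 0.273). Without library 2 of high-fat diet it was 0.38 (n = 35 libraries, p = 0.00497, with an adjusted p of 1). On the deposited FPKM without rescaling the groups overlapped, at 4.31, 4.00 and 4.05 under chow and 5.52, 4.11 and 4.97 under high-fat diet, and the difference was 0.19 (adjusted p = 0.327). On that scale the median over all rows at ZT 8 was -0.014, so the size of this difference moved with the scaling. Whether the difference between diets in Nnt varied over the 6 times was tested separately and gave an adjusted p of 0.720, where 0% of all rows passed at an adjusted and 5.09% at an unadjusted p under 0.05. Of the 9 genes, 0 passed either threshold in that test.

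Sirt3 at ZT 8 was 95.1, 103.9 and 94.4 under chow and 100.1, 60.3 and 94.0 under high-fat diet, so 2 of the 3 high-fat libraries lay within or near the chow values. Its log2 difference was -0.24 ± 0.11 (limma, n = 36 libraries, p = 0.0468, adjusted p = 0.305), and -0.011 without the library at 60.3. Without library 1 of that group, which leaves the low library a larger part, it was -0.37 with an adjusted p of 0.0482, past the threshold. In that setting 1100 of 91038 comparisons over all rows and times were called, against 1 with all 36 libraries.

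**Figure D4:**
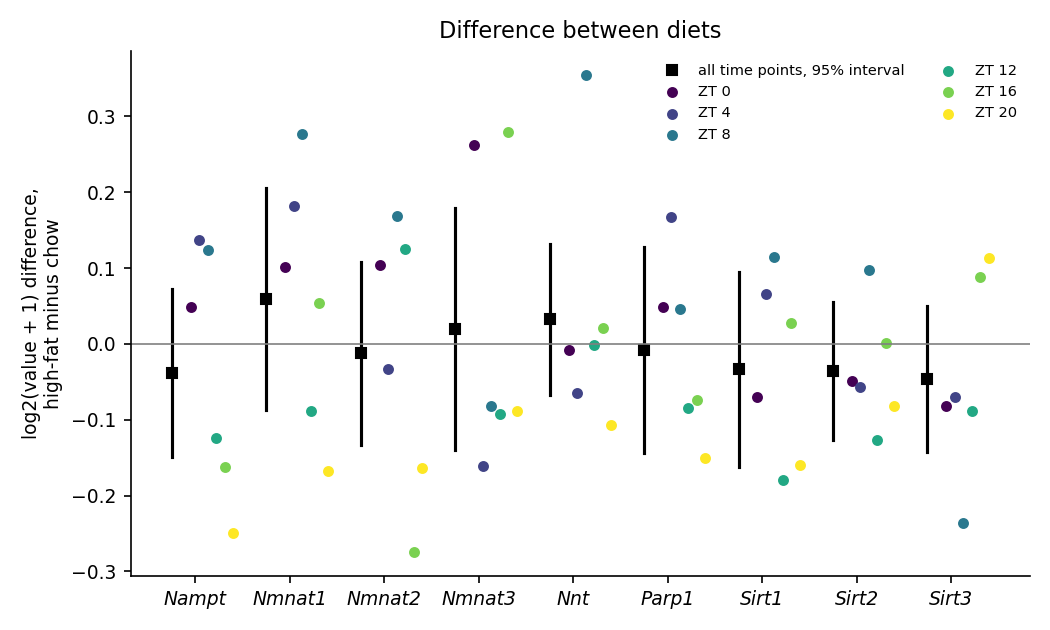
Difference between diets for each gene, on the log2(level + 1) scale. Squares with bars are the estimates over all time points with 95% intervals, all of which include 0, and coloured points are the 6 single times. Nnt at ZT 8 (0.36) is the largest single difference, and the lowest value of Nampt is at ZT 20. The positive value of Nampt at ZT 8 (0.12) is -0.084 without library 2 of high-fat diet at that time.

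Across libraries, pairs of these genes were correlated to very different degrees. Levels on the log2 scale were correlated for all 36 pairs over the 36 libraries, which share their total and their tissue makeup, so r is given as a description. Sirt1 and Parp1, both nuclear NAD users, had r = 0.71 (rho = 0.69), r = 0.74 after the mean of each group was removed, and 0.64 without the 2 farthest libraries. Nampt ran with Nmnat2 (r = 0.59, rho = 0.51) and with Sirt1 (r = 0.57, rho = 0.52). Nmnat1 and Nnt had r = 0.48 (rho = 0.52).

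Nampt and Sirt3 went in opposite directions, with r = -0.77 (rho = -0.55), and r = -0.61 (rho = -0.51) without library 2 of high-fat diet at ZT 8. Within chow alone r was -0.54 and within high-fat diet -0.92, the latter with that library. The highest Sirt3 levels (112 and 110.6) were in libraries with Nampt at 24.2 and 27.8. The negative correlation of Sirt2 with Sirt3 (r = -0.58, rho = 0.087) was present only with that library and was 0.14 without it.

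**Figure D5:**
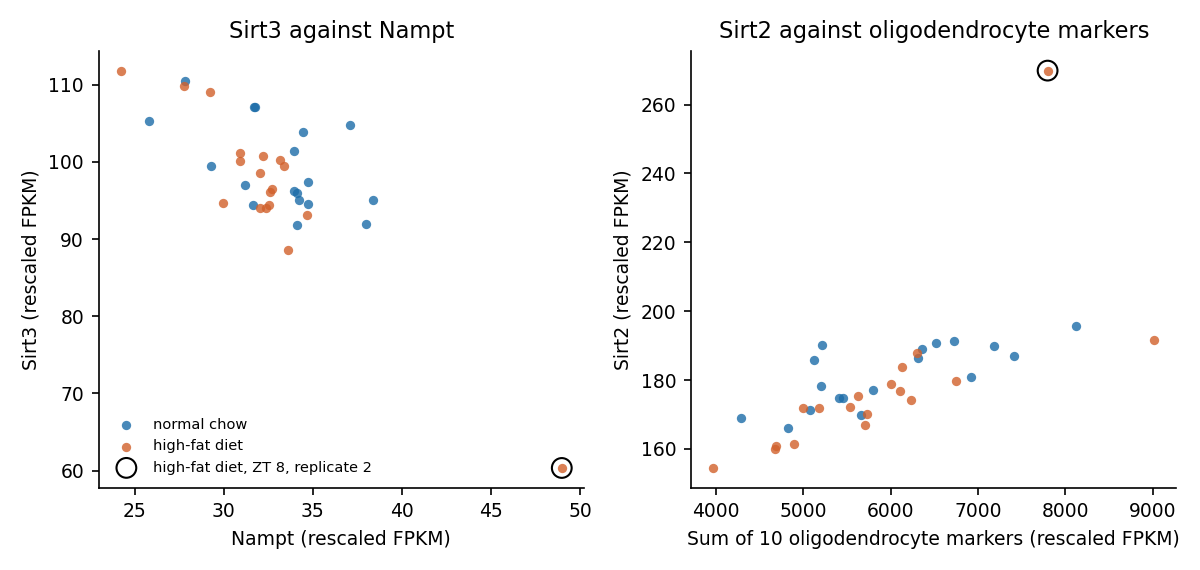
Left, Sirt3 against Nampt and right, Sirt2 against the sum of 10 oligodendrocyte markers, all in rescaled FPKM with 1 point per library (axes do not start at 0). The ring marks library 2 of high-fat diet at ZT 8. Sirt3 is lower where Nampt is higher (r = -0.77, and -0.61 without the ringed library), and Sirt2 is higher where the marker sum is higher (rho = 0.82).

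Markers of cell types were correlated with several of these genes, and their part in the differences between diets was not tested. A fit with oligodendrocyte and neuron levels as covariates called 0 of 9 genes. The fit without them also called 0 of 9, so these counts cannot show that part. Sirt2 had r = 0.70 (rho = 0.82) with the oligodendrocyte marker sum, and r = 0.79 (rho = 0.80) without library 2 of high-fat diet at ZT 8. All 10 oligodendrocyte markers were above the minimum. With the sum of 8 neuronal markers, all above the minimum and summing to between 3322 and 4930, r was 0.65 for Parp1 (rho = 0.60) and 0.59 for Nmnat2 (rho = 0.59). Nampt had r = 0.50 with the neuronal sum (rho = 0.41), and 0.38 without that library. With the sum of 4 oligodendrocyte precursor markers, in which that library is the highest, r was 0.64 for Nampt (rho = 0.41) and -0.62 for Sirt3 (rho = -0.39), and 0.36 and -0.33 without the 2 libraries farthest from the median of that sum. With the sum of 4 ependymal and tanycyte markers, r was -0.62 for Parp1 (rho = -0.56), and -0.56 without the 2 farthest. With the sum of 4 blood markers, r was -0.51 for Sirt1 (rho = -0.50) and -0.45 for Nampt (rho = -0.53), and -0.44 and -0.42 without the 2 farthest. The median of that sum was 2340 under chow (range 1240 to 7782) and 3401 under high-fat diet (1369 to 6714). For Sirt2, r was -0.52 with the SCN marker sum (rho = -0.30), and -0.32 without the 2 farthest. With the sum of 9 markers of other hypothalamic nuclei it was -0.52 (rho = -0.33), and -0.35 without the 2 farthest.

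The genes whose levels were most like each member, by r over the 36 libraries after the mean of each diet was removed, were named as the top 2. They were picked as the highest r of all tested rows, so r is given as a description. For Nampt they were Cul3, a scaffold of ubiquitin ligases, and Hif1a, the hypoxia factor (both r = 0.92). Without library 2 of high-fat diet at ZT 8 these were 0.87 and 0.88. For Nmnat2 they were Pafah1b2 and Ap2a2, a subunit of the endocytic AP-2 adaptor (both 0.92). For Sirt3 they were Cox5b (0.91) and Cox8a (0.90), subunits of cytochrome c oxidase, and for these r was 0.71 and 0.70 without library 2 of high-fat diet at ZT 8. For Sirt2 they were Gltp (0.86), a glycolipid transfer protein, and Sorbs3 (0.84), which had 0.80 and 0.73 without that library. For Sirt1 they were Dhx33 (0.88), an RNA helicase, and Mtf2 (0.86), a partner of the Polycomb repressive complex. For Parp1 they were Ttc19 (0.89), a mitochondrial assembly factor, and Syt7 (0.88), a synaptotagmin. The likeness was lower for Nmnat3 (Vrk1, 0.82, and Tgfa, 0.75), Nmnat1 (Ubqln4 and Fmnl1, both 0.71) and Nnt (Gm16386, 0.71, and Slc18b1, 0.70).

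Of 51 further genes of NAD metabolism, 44 were above the minimum. They fall into synthesis and salvage with side branches of these routes, the remaining sirtuins, other PARPs and NAD glycohydrolases, and targets or partners of sirtuins. In each diet alone 0 of 44 were called rhythmic (limma, adjusted p under 0.05), with 10 at an unadjusted p under 0.05 under chow, where 18.2% of all rows did, and 4 under high-fat diet, where 8.64% did. Both counts are near the background. Over both diets 1 of 44 was called, where 2.18% of all rows were, so this count too is near the background. At an unadjusted p under 0.05, 12 of 44 passed in that shared fit (limma), where 13.1% of all rows did. This count is above the background, and whether the excess is more than chance was not tested. The gene called was Idh2, the mitochondrial isocitrate dehydrogenase that SIRT3 deacetylates, with a level of 75.9 ± 7.32 (SD, n = 36). Its fold was 1.19 with a peak at ZT 15.9 ± 0.787 (adjusted p = 0.0112), and in the single diets the peaks were ZT 16.8 and ZT 15.3. The next by p were Trp53, the tumour suppressor p53 (fold 1.15, peak ZT 8.04, adjusted p = 0.132), Foxo1 (fold 1.30, peak ZT 14.9, adjusted p = 0.164) and the NAD kinase Nadk (fold 1.15, peak ZT 18.4, adjusted p = 0.170). The median fold of the 44 genes was 1.14 in that fit, and that of all rows was 1.10.

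Between diets 0 of these 44 genes passed at an adjusted p under 0.05 (limma), and their median log2 difference was -0.0071, with 20 higher and 24 lower. At an unadjusted p under 0.05, where 2.56% of all rows passed, 2 of 44 did, Parp4 at 0.15 ± 0.069 (n = 36 libraries, p = 0.0340) and Parp16 at -0.097 ± 0.043 (p = 0.0299). The third by p was Parp14, at 0.15 ± 0.087. For all 3 the adjusted p rounded to 1. The difference in rhythm between diets was called for 0 of 44 genes and had an unadjusted p under 0.05 for 6, where 13.2% of all rows did, so this count is near the background.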

How the data were processed

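RNA of an SCN-enriched region was measured in 36 libraries, 3 per diet and time. The deposited values are FPKM in 1 table per diet, a unit inferred from the values and from Cufflinks being named. Per the submitters' processing notes, the authors used Trimmomatic, TopHat and Cufflinks with the builds mm10 and GRCm38, and the library kit was Illumina TruSeq stranded mRNA, per the labels' protocols. No version, annotation or further scaling is given in the sources used here.

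Values were rescaled per library to sum to 1000000 and analysed as log2(value + 1), which understates changes of low genes. Rows with a mean of at least 1 were tested (15150 under chow, 15106 under high-fat diet, 15173 over both) with limma 3.58.1 in R 4.3.3 (trended variance), two-sided where a direction exists, by the F test for the cosine and sine terms of a 24 h period, and adjusted over all rows by Benjamini-Hochberg. The method was tested on simulated data in which rows varied independently of each other. The planted changes were larger than the fitted rhythms and the diet differences over all time points of the 9 genes. That test therefore does not show whether changes of the size seen here would be called. Depth in reads is unknown, so no counting interval is given. Groups come from the labels, and time points are written as ZT after the file headers. The replicate numbers were not used to pair samples. The members and gene lists were chosen with earlier results of these data known. All 9 members were named in each fit over time or diet, members at single times where the unadjusted p was under 0.05, and of the further genes those called plus the 3 smallest p-values for the shared rhythm and for diet. Gene positions are from GENCODE M21 and promoters from RefSeq.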

Additional observations from a re-analysis of the deposited data

How the results depend on the processing

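With 0 of 9 genes called in each fit, this held under each alternative run for that fit (11 for the rhythm in each diet and over both, 10 for the other fits) and with each library left out, except at single times, where the count ran from 0 to 1 (Sirt3 at ZT 8 without library 1 of high-fat diet there). The alternatives without 3 liver-rich libraries, without 2 libraries rich in other brain regions and with the FPKM sum as a covariate were chosen after seeing the data. The order of the 9 levels was kept in all alternatives run for it. Small differences between diets changed sign. For Nmnat2 the value was 0.0035 with oligodendrocyte and neuron levels as covariates, 0.012 with those 2 other-region libraries left out, and leaving out single libraries gave -0.030 to 0.012. For Parp1 it was 0.032 with those covariates, and single libraries left out gave -0.031 to 0.020. For Nmnat3 it was -0.011 without the 3 liver-rich libraries, and single libraries left out gave -0.028 to 0.056. The cause was not tested. Nmnat3 was not tested at a minimum mean of 5.

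Over all rows, the count called was 128 under chow (48 to 260), 11 under high-fat diet (2 to 16), 331 over both (265 to 650) and 1 at single times (0 to 1100, the highest without library 1 of high-fat diet at ZT 8, where library 2 stands apart). With the replicate number as a block, 0 of 9 genes were called in each fit, and the adjusted p of Nnt at ZT 8 was 0.203. The block leaves the estimates as they are in this balanced design. The 198 pairs of libraries with the same number had correlations from -0.35 to 0.55 (median 0.025) in their deviations from the group means. The 396 pairs with different numbers had a median of -0.017. The number was not taken as a pairing. Of 36 libraries, 25 correlated best with their own number, more than the share of same-number pairs. This is a hint of shared structure from the data and not from the design, and p-values outside the block fit leave it out. FPKM without read counts gives no depth, so the precision of the low genes Nmnat3 and Nmnat1 rests on the spread between 3 libraries.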

Other observations

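The summed deposited FPKM of a library was correlated with several of these genes after rescaling. Over the 36 libraries r was -0.68 for Sirt1 (rho = -0.61), -0.65 for Nampt (rho = -0.42) and -0.52 for Parp1 (rho = -0.49). The median over 15173 rows was -0.31, and 35.4% of these rows had r under -0.5, so such values were common. Without library 2 of high-fat diet at ZT 8, r was -0.67 for Sirt1 and -0.50 for Nampt. For Sirt3 r was 0.51 (rho = 0.22), and 0.17 without that library, while 10.9% of all rows had r over 0.4. A shared divisor links each of these values to the sum, and its part was not tested. With the log2 sum as a covariate, the difference of Nnt between diets at ZT 8 was 0.25 (adjusted p = 0.803) and that of Sirt3 was -0.12 (adjusted p = 0.866).

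Genes of the kynurenine route of tryptophan breakdown had levels from under the minimum for testing to moderate ones. Part of this route leads to NAD, but Kyat1 and Acmsd belong to side branches and are not steps towards it. Kyat1 had 15.4 ± 2.09 (SD, n = 36) and Afmid 6.41 ± 1.24. Kmo had a mean level of 0.544, Kynu 0.541 and Acmsd 0.146, all under the minimum for testing, while Qprt, the last enzyme before the shared adenylyl transfer, had a level of 1.61 ± 1.60 (SD, n = 36). Tdo2 had 3.75 ± 9.77 and Haao 2.22 ± 5.59. The 3 libraries with the highest sum of 7 liver markers had 5198, 1444 and 1429, against a median of 465 under chow, and the part of liver transcripts in these values was not tested. Outside that route, Nmrk1, which makes nicotinamide mononucleotide from the riboside, had 13.2 ± 1.64, and Slc25a51, the mitochondrial NAD carrier, 55.4 ± 3.85.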
